A study of Mus musculus with 12 samples.

Results

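Genes of skeletal muscle fibres were followed in RNA from mouse brain tissue: 34 of the 25749 genes in each expression table, found by exact match of the gene name in all 12 libraries. They encode parts of the contractile sarcomere, the calcium machinery that drives it and the enzymes that fuel it. The genes were picked as a group because RNA of muscle fibres had already been seen in the libraries of antibody-treated mice. Their levels and counts of calls in that group are therefore given as a description that supports nothing, and p-values are given for them only between injured and uninjured mice.

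The study, on cerebrovascular injury, sequenced total RNA of 12 different male B6 mice aged 13 weeks, with 4 mice in each of 3 groups. The labels name no antibody for the uninjured and the injured mice. The tissue was taken at day 20 after injury. Antibody-treated mice were injured and received continuous αLFA1/VLA4, antibodies to the leukocyte integrins LFA1 and VLA4, through which white blood cells attach to vessel walls. All mice were perfused with saline, a cube of tissue with 3 mm edges was frozen, and 500 ng of total RNA went into a stranded total RNA library. No group received antibody without injury or a control antibody, so a difference between antibody-treated and injured mice cannot be told apart from any effect of giving an antibody. The labels do not give the site of the cube in uninjured mice.

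A striated muscle fibre shortens when myosin thick filaments pull on actin thin filaments. An action potential opens the calcium release channel of the sarcoplasmic reticulum, calcium binds troponin C, and tropomyosin moves off the myosin sites on actin. Many of these proteins come in a fast-fibre and a slow-fibre version from separate genes. Healthy brain holds no skeletal muscle fibres, but neurons, glia and vessel cells use some of these genes, and total RNA from a block of tissue does not show which cells a transcript came from. Fewer cells of a type and less RNA per cell cannot be told apart in such bulk samples.

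The upstream sequences of 4 genes named in the results below are shown: Acta1 and Mylpf led their roles, Myh4 is a muscle-restricted motor and Atp2a1 differed between all groups. No result on expression rests on these sequences. They come from RefSeq, build GRCm38.p6, and hold the 250 bases before the start that RefSeq gives, written 5′ to 3′ on the gene's own strand. That start differs from the one in GENCODE, whose gene spans are given further on: the Mylpf window lies inside that longer gene, and the Atp2a1 window reaches into it. Capitals mark CAGCTG, the E-box form that myogenic factors bind well, and, in Acta1 and Myh4, a CArG box, the element bound by serum response factor. Acta1 lies on the minus strand at chr8:123894776-123895025, Mylpf on the plus strand at chr7:127211358-127211607, Myh4 on the plus strand at chr11:67237562-67237811 and Atp2a1 on the minus strand at chr7:126463074-126463323.
Acta1: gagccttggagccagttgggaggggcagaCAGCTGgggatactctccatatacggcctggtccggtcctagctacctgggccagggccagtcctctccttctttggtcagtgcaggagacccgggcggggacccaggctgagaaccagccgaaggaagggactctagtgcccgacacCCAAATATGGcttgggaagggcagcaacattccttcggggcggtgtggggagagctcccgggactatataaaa
Mylpf: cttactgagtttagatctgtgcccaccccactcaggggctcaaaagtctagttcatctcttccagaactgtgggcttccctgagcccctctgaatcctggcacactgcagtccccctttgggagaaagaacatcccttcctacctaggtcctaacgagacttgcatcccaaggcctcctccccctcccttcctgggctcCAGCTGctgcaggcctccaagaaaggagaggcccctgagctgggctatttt
Myh4: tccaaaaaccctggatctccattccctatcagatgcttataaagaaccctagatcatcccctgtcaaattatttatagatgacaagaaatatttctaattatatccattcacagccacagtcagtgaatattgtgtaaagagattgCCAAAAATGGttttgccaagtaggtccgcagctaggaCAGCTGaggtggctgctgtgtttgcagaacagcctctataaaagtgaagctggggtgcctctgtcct
Atp2a1: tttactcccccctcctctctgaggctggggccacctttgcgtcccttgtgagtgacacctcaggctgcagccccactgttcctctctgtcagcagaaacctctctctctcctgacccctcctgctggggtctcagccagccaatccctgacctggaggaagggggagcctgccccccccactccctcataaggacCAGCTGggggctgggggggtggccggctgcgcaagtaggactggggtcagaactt
The E-box begins at base -221 from the start of Acta1, at -51 in Mylpf, at -67 in Myh4 and at -55 in Atp2a1, and the CArG box begins at -73 in Acta1 and at -104 in Myh4. RefSeq windows were found for 25 of the 34 genes, 29 windows in all. CAGCTG, which reads the same on both strands, was in 15 of the 29 upstream sequences (51.7%) and in 4271 of 32851 over all genes (13%). By the classes defined below, it was in 7 of 14 windows of muscle-restricted genes (50%) and 8 of 15 of genes expressed in brain (53.3%). A CArG box on either strand was in 6 of the 29 (20.7%) and in 482 of the 32851 (1.47%). A match describes the letters and is not evidence of binding.

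Library depth ranged from 13330379 to 16121577 exon reads. Levels are given as the deposited TPM, transcript abundances scaled by exon length and depth, so that genes can be compared, and comparisons between groups use the deposited exon read counts. The TPM scale itself ran higher in injured mice: over the genes tested the median log2 ratio of mean TPM was 0.19 for injured over uninjured, 0.02 for antibody-treated over uninjured and -0.14 for antibody-treated over injured mice, so TPM of injured mice is read beside the count-based fold changes. A gene was called expressed in brain when its mean over the 4 uninjured libraries was at least 1 TPM, which took in 14 of the 34, and muscle-restricted below that, which took in 20. The genes nearest the threshold were Casq1 at 1.01 TPM and Myom1 at 1.06 just inside, and Actn3 at 0.628 and Atp2a1 at 0.575 just outside. Because TPM is scaled by exon length, the split does not follow read counts. Over the uninjured libraries Mylpf and Casq1, just inside, had 39 and 47 exon reads, while the muscle-restricted Neb and Myh2 had 89 and 82.

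The 20 muscle-restricted genes were, except Sln, low in the uninjured and injured libraries and higher in all 4 antibody-treated libraries. Their summed level was 4.31, 4.46, 7.21 and 6.16 TPM in the uninjured libraries, 7.0, 7.49, 9.58 and 8.73 TPM in the injured libraries, and 147, 149, 132 and 169 TPM in the antibody-treated libraries. These gave group means of 5.54 ± 1.40, 8.20 ± 1.17 and 149 ± 15.4 TPM (SD, n = 4 each). The lowest antibody-treated library lay far above every other library, and the uninjured and injured ranges overlapped. In normalised CPM (exon reads scaled by library size and TMM factor) the sums ranged from 8.02 to 10.3, from 10.02 to 11.7 and from 131 to 153 in the same order. Even so the amounts were small: the 20 genes held 1905, 1939, 1844 and 2037 exon reads of the antibody-treated libraries, a mean of 0.0141% of their exon reads, against 0.000895% in uninjured and 0.00109% in injured libraries. Summed over the 14 genes expressed in brain, the level ranged from 124 to 145 TPM in uninjured, from 160 to 206 TPM in injured and from 217 to 288 TPM in antibody-treated libraries.

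**Figure D1:**
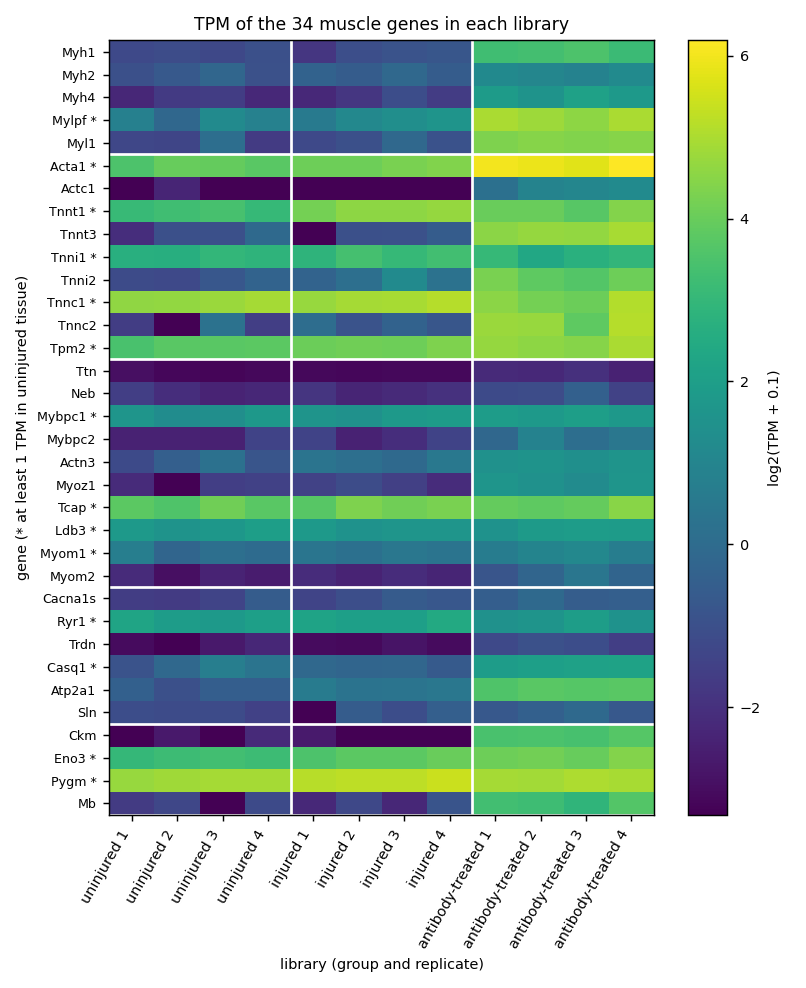
Level of each of the 34 muscle genes (rows, grouped by role from the thick filament at the top to energy metabolism at the bottom) in each of the 12 libraries (columns), as log2(TPM + 0.1) by colour, with a star on the 14 genes of at least 1 TPM in uninjured tissue. Rows without a star, except Sln, are lighter in all 4 antibody-treated columns than in the uninjured and injured columns, while starred rows such as Pygm and Tnnc1 are light throughout.

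The motor genes of the group are those of fast fibres. Mylpf, the regulatory light chain of fast myosin (chr7:127208890-127214298, plus strand), was the highest of them. Its level was 1.67, 0.794, 2.22 and 1.72 TPM in uninjured, 1.39, 2.08, 2.51 and 2.96 TPM in injured and 31.3, 27.8, 23.6 and 31.3 TPM in antibody-treated libraries. The uninjured and injured libraries overlapped, and the antibody-treated libraries were all above them, with a log2 fold change of 4.14 (SE 0.23) over uninjured mice. Myl1, the fast essential light chain, stood at 21.1 ± 0.787 TPM in antibody-treated mice, against 0.450 ± 0.358 in uninjured and 0.495 ± 0.227 in injured mice. The heavy chain genes Myh2, Myh1 and Myh4 lie side by side on chromosome 11 and encode the motors of IIa, IIx and IIb fibres. In antibody-treated libraries Myh1 had 354, 367, 397 and 331 exon reads, Myh4 had 128, 98, 138 and 118, and Myh2 had 78, 69, 58 and 80. Myh1 had 7 to 18 reads in any other library, Myh4 had 4 to 14 and Myh2 had 15 to 31. Per length, the IIx gene was the highest of the 3, at 9.98 ± 1.14 TPM, against 3.51 ± 0.592 for Myh4 and 2.04 ± 0.220 for Myh2, and these ranges did not overlap between the 3 genes. Their coding sequences are alike, and 91.6% of the Myh1 reads, 91.9% of the Myh2 reads and 95.4% of the Myh4 reads in antibody-treated libraries were uniquely placed. The split of reads among the heavy chains is uncertain to that extent.

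On the thin filament, skeletal α-actin was the highest of all 34 genes in antibody-treated tissue. Acta1 (chr8:123891769-123894751, minus strand) was at 11.4, 15.5, 15.4 and 13.3 TPM in uninjured, 17.1, 16.8, 19.0 and 20.9 TPM in injured and 65.2, 60.5, 54.3 and 72.8 TPM in antibody-treated libraries. Every antibody-treated library was above every other. Injured libraries were above uninjured ones in TPM, and the 2 groups overlapped in normalised CPM. It also differed by the most TPM, with a mean of 63.2 ± 7.79 TPM above a brain level of 13.9 ± 1.93, a log2 fold change of 2.18 (SE 0.14). Actc1, cardiac α-actin, which is also used by developing skeletal muscle, had 10, 17, 17 and 21 reads in antibody-treated libraries, 1 read in a single uninjured library and none in the other 7. Over the groups that is 65 reads against 1, a depth-scaled ratio of 70.8 with a 95% counting interval of 12.3 to 2838 over uninjured mice, and at least 25.7-fold higher than in injured mice, where the bound takes 3 reads over the group.

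Tropomyosin and the troponins make the calcium switch on the thin filament, with troponin T tying it to tropomyosin, troponin I blocking the myosin sites and troponin C binding calcium. Tnnt3, fast troponin T (chr7:142498836-142516009, plus strand), was at 0.139, 0.396, 0.396 and 0.859 TPM in uninjured, 0, 0.399, 0.417 and 0.579 TPM in injured and 23.0, 25.9, 24.8 and 30.4 TPM in antibody-treated libraries. It was near 0 in 8 libraries and among the 4 highest genes of the group in antibody-treated tissue. Fast troponin I, Tnni2, reached 15.6 ± 3.03 TPM in antibody-treated mice from 0.472 ± 0.179 in uninjured and 1.27 ± 0.679 in injured mice, and fast troponin C, Tnnc2, reached 25.6 ± 8.71 TPM from 0.393 ± 0.485 and 0.648 ± 0.240. Tnnc2 varied most among these, with 53 reads in antibody-treated replicate 3 and 107 to 144 in the others.

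The slow troponins were present in brain already. Tnnc1, the troponin C of slow and cardiac fibres, was at 24.3, 24.8, 27.2 and 29.7 TPM in uninjured, 26.1, 29.7, 30.6 and 35.0 TPM in injured and 23.3, 18.2, 16.4 and 34.4 TPM in antibody-treated libraries. The 3 groups overlapped, and antibody-treated replicate 4 was about as high as the highest injured library while the other antibody-treated libraries were lower than every uninjured one. Tnni1, slow troponin I, was at 6.36, 6.15, 7.68 and 7.25 TPM in uninjured, 7.14, 10.4, 8.27 and 9.82 TPM in injured and 8.16, 5.17, 6.39 and 7.5 TPM in antibody-treated libraries, and those groups overlapped too. Tnnt1, slow troponin T (chr7:4504570-4516382, minus strand), was at 8.42, 9.44, 10.6 and 8.26 TPM in uninjured, 18.3, 23.6, 23.7 and 25.6 TPM in injured and 16.0, 16.0, 12.9 and 21.1 TPM in antibody-treated libraries. It was lowest in uninjured mice, with no overlap with either other group. Tpm2, β-tropomyosin, was at 10.9, 13.4, 13.6 and 13.7 TPM in uninjured, 16.4, 17.3, 17.1 and 20.1 TPM in injured and 25.6, 23.5, 22.1 and 31.1 TPM in antibody-treated libraries, higher in that order with no overlap between groups.

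The proteins that span and anchor the filaments fell into both classes. Tcap, telethonin, which caps titin at the Z-disc, had the highest level of them and was at 13.7, 11.9, 17.2 and 13.2 TPM in uninjured, 13.2, 20.5, 17.5 and 19.1 TPM in injured and 15.1, 14.1, 15.2 and 22.4 TPM in antibody-treated libraries. The groups overlapped. Ldb3, the Z-disc protein ZASP, was at 3.45, 2.88, 3.16 and 3.92 TPM in uninjured, 3.33, 2.80, 3.03 and 3.02 TPM in injured and 2.78, 3.49, 3.73 and 3.61 TPM in antibody-treated libraries, again overlapping. Mybpc1, the slow form of myosin-binding protein C, was at 3.02, 2.38, 2.48 and 3.27 TPM in uninjured, 2.92, 2.68, 3.47 and 3.58 TPM in injured and 3.67, 3.42, 3.91 and 3.26 TPM in antibody-treated libraries, with a log2 fold change of 0.35 (SE 0.11) between the outer groups, whose ranges met. Myom1, myomesin of the M-band, was at 1.58, 0.763, 1.0 and 0.898 TPM in uninjured, 1.19, 1.05, 1.26 and 1.15 TPM in injured and 1.49, 1.86, 2.09 and 1.52 TPM in antibody-treated libraries, and uninjured replicate 1 lay within the antibody-treated range.

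The other 6 of these genes were muscle-restricted. Titin (Ttn), the molecular spring, went from 0.0163 ± 0.00971 TPM in uninjured to 0.120 ± 0.0251 in antibody-treated mice, which was 81, 76, 93 and 60 reads against 6 to 21 in any uninjured or injured library. Nebulin (Neb), which sets thin filament length, had 49, 51, 86 and 38 reads against 15 to 36. Both genes are very long, and the Neb level in antibody-treated mice was only 0.406 ± 0.170 TPM. Mybpc2, the fast myosin-binding protein C, Actn3, the α-actinin of fast-fibre Z-discs, Myoz1, a Z-disc protein that binds calcineurin, and Myom2, the M-protein, reached means between 0.80 and 2.77 TPM. All 6 were higher in every antibody-treated library than in any other.

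Among the calcium genes the pump stood out. Atp2a1, the calcium ATPase SERCA1 of fast fibres (chr7:126445858-126463108, minus strand), was at 0.653, 0.400, 0.621 and 0.626 TPM in uninjured, 1.46, 1.12, 1.17 and 1.27 TPM in injured and 11.8, 13.3, 12.6 and 13.3 TPM in antibody-treated libraries. The 3 groups did not overlap, and the antibody-treated libraries lay within a narrow range. Casq1, fast calsequestrin, which stores calcium in the reticulum, was at 0.439, 0.836, 1.59 and 1.18 TPM in uninjured, 0.825, 0.757, 0.791 and 0.550 TPM in injured and 3.68, 4.03, 4.20 and 4.35 TPM in antibody-treated libraries, with the uninjured and injured groups overlapping and the antibody-treated group above both. Trdn, triadin, which links calsequestrin to the release channel, had 15, 19, 16 and 11 reads in antibody-treated libraries and 0 to 5 in the others. Cacna1s, the voltage sensor of the fibre membrane, had 23, 32, 21 and 24 reads against 9 to 22, and per length it stood at 0.610, 0.863, 0.606 and 0.640 TPM against at most 0.575 TPM elsewhere.

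Ryr1, the calcium release channel, ran the other way. It is a large gene also used by neurons, and it was at 4.56, 3.74, 3.40 and 4.02 TPM in uninjured, 4.43, 4.01, 4.07 and 5.45 TPM in injured and 2.74, 2.90, 3.86 and 2.74 TPM in antibody-treated libraries. The antibody-treated libraries were lower than every injured library, with a log2 fold change of -0.40 (SE 0.10), which was -0.10 with the GC and length trend removed. Replicate 3 of that group lay within the uninjured range. Sln, sarcolipin, an inhibitor of the pump, had 0 to 6 reads in every library, with 4, 5, 6 and 4 in antibody-treated, 2 to 3 in uninjured and 0 to 5 in injured libraries. On these few reads the antibody-treated libraries lay above all uninjured ones and overlapped the injured ones. The reads were too few for the filter on low counts, so Sln was not tested.

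Of the metabolic genes, Ckm and Mb were muscle-restricted and Pygm and Eno3 were expressed in brain. Ckm, muscle creatine kinase (chr7:19404776-19422841, plus strand), had 176, 176, 157 and 206 reads in antibody-treated libraries, 0, 1, 0 and 2 in uninjured libraries, and 1 read in a single injured library. The depth-scaled ratio was 260 over uninjured mice, from 715 reads against 3, with a 95% counting interval of 88.4 to 1261. Mb, myoglobin, which holds oxygen in muscle, had 87, 81, 59 and 108 reads in antibody-treated libraries and 0 to 4 in the others. Pygm, muscle glycogen phosphorylase (chr19:6384399-6398459, plus strand), which astrocytes also use to break down glycogen, was at 26.6, 28.2, 30.1 and 29.7 TPM in uninjured, 36.0, 37.8, 38.1 and 42.6 TPM in injured and 29.8, 29.3, 32.7 and 30.7 TPM in antibody-treated libraries. It was highest in injured mice, with no overlap with either other group. Eno3, the β-enolase of muscle glycolysis (chr11:70657202-70662513, plus strand), was at 7.97, 9.14, 9.77 and 9.12 TPM in uninjured, 11.4, 13.6, 13.8 and 16.1 TPM in injured and 16.7, 17.6, 15.5 and 21.3 TPM in antibody-treated libraries. Uninjured libraries were below all others, and the injured and antibody-treated ranges met in TPM, with injured replicate 4 above the lowest antibody-treated library. In normalised CPM those 2 groups did not overlap, at 7.26 to 9.53 in injured and 10.1 to 15.8 in antibody-treated libraries.

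Set in pairs, the fast-fibre genes were high in antibody-treated libraries and the slow partners Tnni1 and Tnnc1 overlapped the uninjured libraries, while Tnnt1 did not. Tnni2 was at 15.6 TPM and its slow partner Tnni1 at 6.80 TPM, from 0.472 and 6.86 TPM in uninjured mice. Tnnt3 was at 26.0 TPM and Tnnt1 at 16.5, from 0.448 and 9.19 TPM. Tnnc2 was at 25.6 TPM and Tnnc1 at 23.1, from 0.393 and 26.5 TPM. Slow genes were not all level. In normalised CPM Mybpc1, the slow partner of Mybpc2, ranged from 6.12 to 6.85 in antibody-treated libraries. It ranged from 4.37 to 5.70 in uninjured and from 4.67 to 5.60 in injured libraries, both without overlap with the antibody-treated range. Myoz2, the slow-fibre relative of Myoz1 and not one of the 34, had 8, 5, 9 and 9 reads in antibody-treated and 0 to 2 in other libraries. The slow heavy chain Myh7, which is not one of the 34, had 243, 320, 338 and 267 reads in uninjured, 287, 332, 332 and 327 in injured and 247, 263, 219 and 312 in antibody-treated libraries, with all 3 groups overlapping. Slow-fibre light chains were scarce, with 2 to 10 reads of Myl2 and 0 to 1 of Myl3 in any library.

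**Figure D2:**
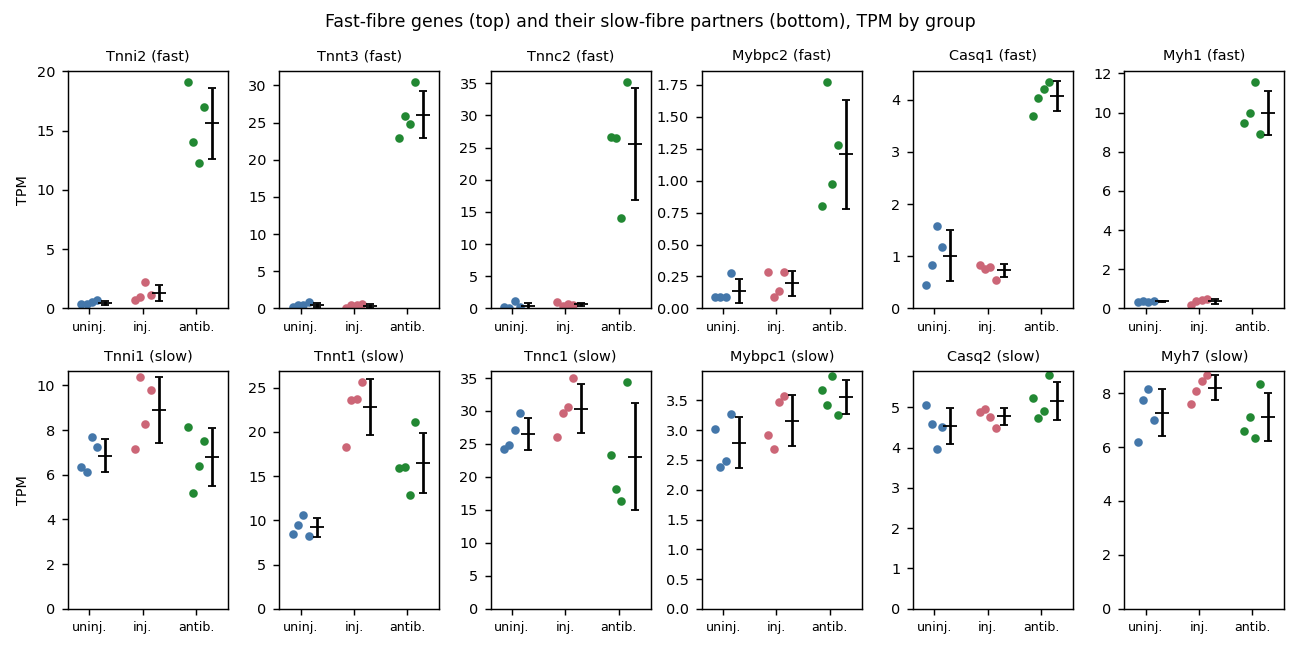
TPM of 6 fast-fibre genes (top row) and their slow-fibre partners (bottom row) in uninjured, injured and antibody-treated libraries, 4 points a group, with black bars for the mean and SD, each panel on its own linear axis from 0. In the top row the antibody-treated points stand above all others, while in the bottom row the groups overlap, except that Tnnt1 is lowest in uninjured mice.

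Of the 34 genes, 33 passed the filter on low counts. Of these, 13, 12 of them muscle-restricted, passed only with the antibody-treated libraries, so that the filter itself favoured a higher level there. The 13 were Myh4, Myl1, Actc1, Tnnt3, Tnni2, Tnnc2, Mybpc2, Myoz1, Myom2, Trdn, Casq1, Ckm and Mb. Against uninjured mice, 26 of the 33 passed an edgeR adjusted p of 0.05 in the higher direction and 1, Ryr1, in the lower direction, where 6.30% and 3.22% of all 14771 genes tested did. Those 26 were the 19 muscle-restricted genes tested and 7 of the 14 expressed in brain. Against injured mice, 25 were higher and 1, again Ryr1, was lower, beside 10.9% and 10.7% of all genes. In normalised CPM, all 4 antibody-treated libraries lay above all 4 uninjured ones for 26 genes, beside 9.01% of all genes, below them for none, beside 6.56%, and above all injured ones for 26, beside 10.6%. They lay below all injured ones for 2, Ryr1 and Pygm, beside 11.4%. The median log2 fold change of the 33 was 2.18 over uninjured and 2.61 over injured mice, and that of all genes tested was 0.01 in each. Of the 27 called against uninjured mice, Ryr1, Myom1 and Cacna1s lost the call under at least 1 alternative, and of the 26 called against injured mice, Ryr1 and Mybpc1 did. These counts follow from how the genes were picked, the comparisons share the antibody-treated libraries, and nothing is read from them.

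**Figure D3:**
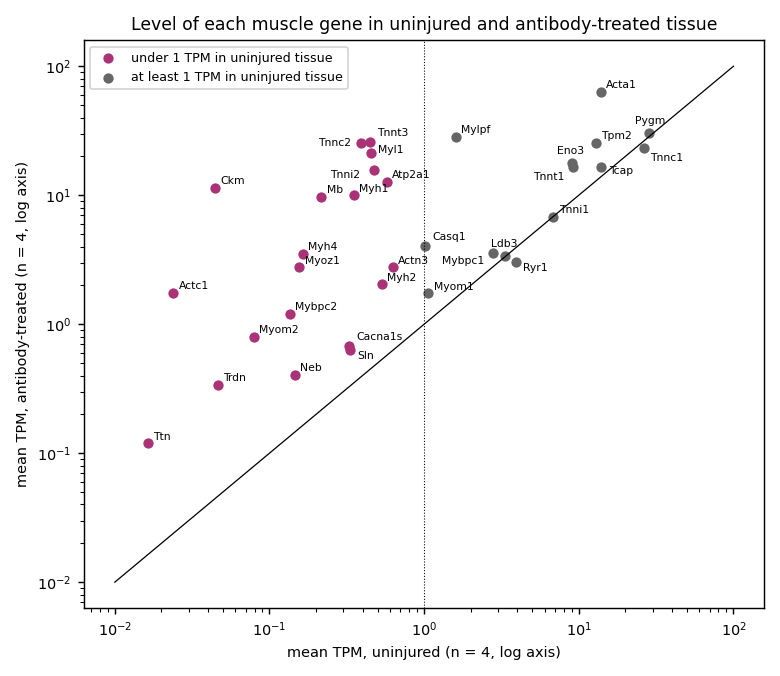
Mean TPM of each of the 34 genes in antibody-treated (vertical) against uninjured tissue (horizontal), n = 4 each, both axes logarithmic, with the diagonal of equal levels and a dotted line at 1 TPM. The 20 muscle-restricted genes (purple) lie above the diagonal, and among the 14 genes expressed in brain (grey) Acta1 and Mylpf lie far above it while Pygm, Tnni1 and Ldb3 lie on or near it.

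No single antibody-treated library held the signal. The coefficient of variation over the 4 libraries had a median of 18.1% over the 20 muscle-restricted genes, from 5.56% to 38.3%, and 17.9% over the 14 expressed in brain, from 4.68% to 40.0%. The highest TPM was in replicate 1 for 1, replicate 2 for 5, replicate 3 for 6 and replicate 4 for 8 of the 20 genes. The order of the mice differed between genes. Replicate 4 was highest for Tnnt3, Tnnc2, Ckm and Mb among others and lowest for Myh1, Ttn, Neb and Trdn, and replicate 3 was the reverse for most of these, highest for Myh1, Ttn and Neb and lowest for Tnnc2, Ckm and Mb. The genes lowest in replicate 4 were long, with 6353 to 113589 exon bases. Of the 8 highest there, Myh2 had 6083 exon bases and the others 700 to 2887. The part of exon length in this order was not tested.

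Between injured and uninjured mice 4 of the 33 tested genes changed. Tnnt1, Atp2a1, Eno3 and Pygm rose at an edgeR adjusted p of 0.05, which is 12.1% of the 33 beside 11.9% of all 14771 genes, and none fell beside 11.0%. All 4 are among the 20 of the 33 that pass the filter without the antibody-treated libraries, as 14509 of all genes do, of which 1744 rose. The other 13 fall under the filter in those 8 libraries. For Tnnt1 the log2 fold change was 1.14 (SE 0.17), adjusted p = 0.00195, and for Atp2a1 0.96 (SE 0.18), adjusted p = 0.00502 in edgeR's test, each above every uninjured library in 4 of 4 injured libraries. For Eno3 it was 0.45 (SE 0.14), adjusted p = 0.0385, and for Pygm 0.27 (SE 0.07), adjusted p = 0.0178, in edgeR's quasi-likelihood test with Benjamini-Hochberg adjustment. The calls of Eno3 and Pygm ended when a trend with GC content and length was removed, at edgeR adjusted p = 0.334 and 0.996, while those of Tnnt1 and Atp2a1 held under each alternative run. Eno3 was also not called without 1 of uninjured replicates 1, 2 and 4, injured replicates 2, 3 and 4 or antibody-treated replicates 1 and 2 (edgeR adjusted p from 0.0518 to 0.121), and Pygm not without uninjured replicate 1 or injured replicate 2 or 4 (from 0.0543 to 0.0623). Of the 4, Atp2a1 was the muscle-restricted one and the other 3 were expressed in brain.

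The exon reads of Atp2a1 went from 14, 9, 14 and 13 in uninjured to 30, 25, 25 and 26 in injured libraries and to 242, 267, 237 and 270 in antibody-treated ones. It shares 763 exon bases with Rabep2 on the opposite strand, and Rabep2 rose in injured mice too, from 8.68 ± 1.32 to 12 ± 0.843 normalised CPM, while it was at 8.92 ± 0.901 CPM in antibody-treated mice. Whether the counting used strand is not given in the sources used here, and the part of Rabep2 in the Atp2a1 reads was not tested. Beside Tnnt1, the thalamus-rich genes Prkcd and Tcf7l2, picked after their values were seen, rose in injured mice as well. Prkcd went from 32.7 ± 2.18 CPM in uninjured to 62.6 ± 2.48 in injured and 53.6 ± 1.20 in antibody-treated mice, and Tcf7l2 from 8.61 ± 0.675 to 17.0 ± 2.56 and 19.9 ± 1.8. The part of the region sampled in the Tnnt1 result was not tested.

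The other 29 tested genes did not pass, though Ldb3, Tpm2 and Actn3 did under some alternatives. The nearest were Ldb3 at a log2 fold change of -0.30 (SE 0.11), adjusted p = 0.0631 by edgeR, Tnni2 at 1.24 (SE 0.50), adjusted p = 0.0875, and Tpm2 at 0.29 (SE 0.13), adjusted p = 0.124. Of these, Tnni2 passed the filter only with the antibody-treated libraries and had 11 reads over the uninjured and 29 over the injured libraries. Actc1 and Ckm had at most 3 reads in either group, so that no fold is given for them. Over the other 31 the median log2 fold change was 0.22, and over all 33 it was 0.17. That of all genes tested, from which no gene was left out for few reads, was 0.03. Some of the 31 passed the filter only with the antibody-treated libraries. Injured libraries lay above all uninjured ones for 5 genes, Tpm2 and the 4 called, beside 17.4% of all genes, and below them for none, beside 12.9%.

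**Figure D4:**
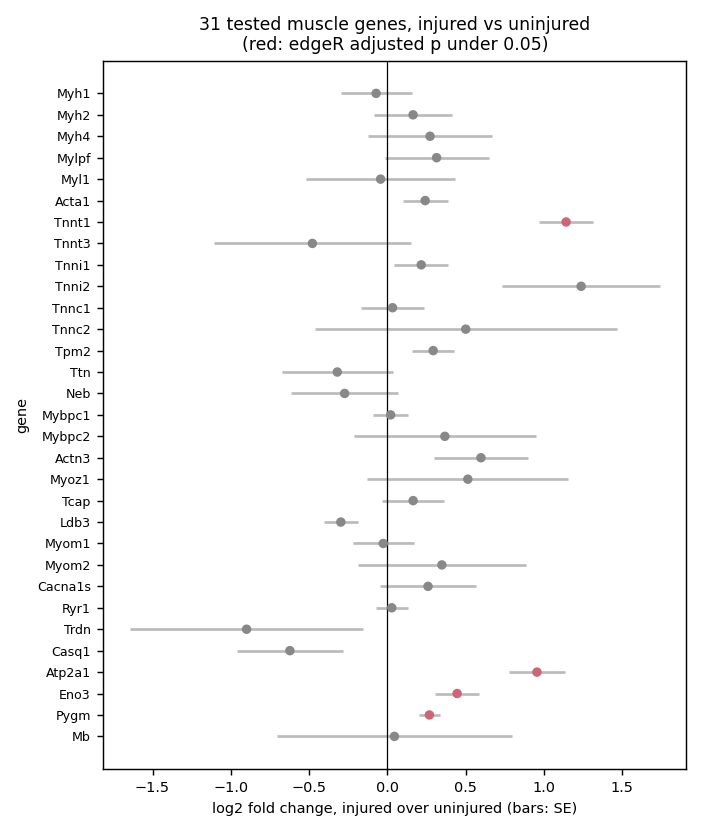
Log2 fold change of injured over uninjured mice (horizontal, edgeR, bars for SE) for the 31 tested genes with over 3 reads in either group, ordered by role. The 4 red points, Tnnt1, Atp2a1, Eno3 and Pygm, passed an adjusted p of 0.05.

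The reads of the muscle-restricted genes were spliced. Reads across exon junctions summed to 1085, 1055, 1061 and 1141 over the 20 genes in antibody-treated libraries, and to 67 to 108 in any other library. They made up 56.2% of their exon reads in antibody-treated, 56.9% in uninjured and 54.7% in injured libraries. Intron reads of the same genes were 27, 45, 34 and 36 in antibody-treated, 22, 24, 17 and 24 in uninjured and 32, 20, 21 and 24 in injured libraries, so that exon reads differed far more between groups than intron reads. Of the exon reads, 97.8% were uniquely placed in antibody-treated libraries.

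**Figure D5:**
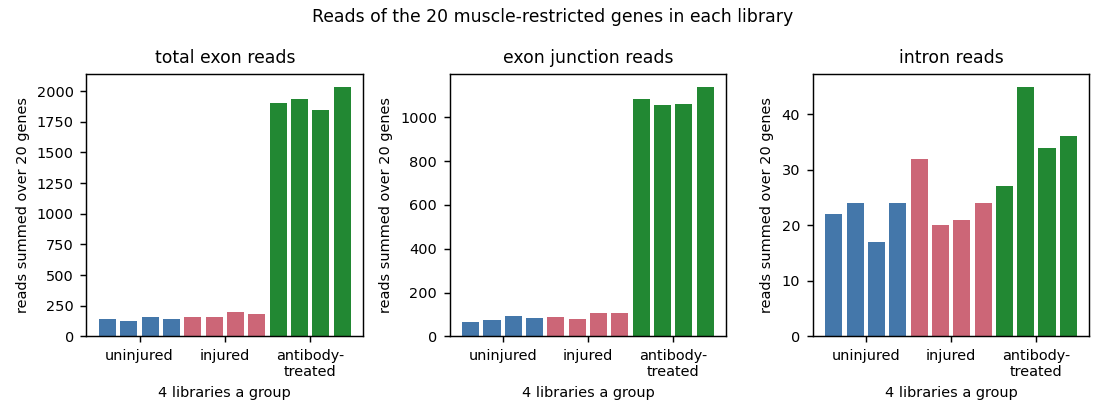
Exon, exon junction and intron reads (left to right, linear axes from 0 with separate scales) summed over the 20 muscle-restricted genes, 1 bar a library, 4 libraries a group. Antibody-treated bars are between 1844 and 2037 for exon reads and between 1055 and 1141 for junction reads, against at most 195 and 108 elsewhere. For intron reads they are between 27 and 45, above every uninjured bar (17 to 24) and overlapping the injured bars (20 to 32).

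Exons of 5 of the 34 genes overlap a gene on the opposite strand. Besides Atp2a1 these are Tnnc2 with 592 of its 700 exon bases under Ube2c, Mybpc1 with 252 bases under Gm48752, Myom1 with 207 under Myl12a and Mb with 64 under Apol6. Ube2c was at 0.533 ± 0.0955, 0.307 ± 0.0518 and 0.622 ± 0.266 CPM in uninjured, injured and antibody-treated mice, Apol6 stayed under 0.3 CPM and Gm48752 had no read in any library. Myl12a was at 20.0 ± 2.39, 21.9 ± 3.01 and 27.8 ± 4.10 CPM, and its part in the Myom1 reads was not tested.

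Other genes of the same fibres were read from further lists, with the same edgeR fit and threshold. For this and each list that follows, the share of all genes called with injury was 11.9% higher and 11.0% lower. Between antibody-treated and uninjured mice the share was 6.30% higher and 3.22% lower. Of 30 other sarcomere genes 18 were tested, and none passed between injured and uninjured mice. Against uninjured mice 8 were called higher with antibody, beside 6.30% of all genes, and 1, Fbxo32, lower. Of the 8, Xirp2, Klhl41, Hspb7, Csrp3, Myot and Smpx passed the filter only with the antibody-treated libraries, so that the filter favoured a higher level there. That leaves Flnc and Nrap. The list's median log2 fold change over uninjured mice was 0.01 with injury and 0.17 with antibody. The highest of this list, the tropomyosins Tpm1 and Tpm3, are made in most cells and were at 228 ± 11.4 and 171 ± 11.0 CPM in uninjured and 223 ± 20.2 and 190 ± 19.5 CPM in antibody-treated mice. Of 15 calcium handling genes, 11 tested, none changed with injury, Hrc and Stac3 were higher with antibody than in uninjured mice, and the medians were 0.16 and -0.02. Cacnb1 and Pvalb, the highest of them and both used by neurons, were at 123 ± 2.41 and 61.7 ± 9.37 CPM in uninjured and 117 ± 3.21 and 69.3 ± 16.8 CPM in antibody-treated mice. Of 15 genes of muscle metabolism, 12 tested, Gys1, Slc2a4 and Pfkm rose with injury, Cox7a1, Cox8b and Slc2a4 were higher with antibody than in uninjured mice, and the medians were 0.07 and 0.10. Pfkm, muscle phosphofructokinase, was at 433 ± 12.1, 501 ± 41.3 and 402 ± 19.1 CPM, and Fabp3, a fatty acid carrier, at 73.7 ± 5.65, 76.0 ± 7.72 and 77.9 ± 18.7 CPM.

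Genes of muscle stem cells and new fibres gave few calls. Of 12 myogenic regulators 2 were tested, Megf10 and Cdh15, and neither passed in any comparison. Pax7, the satellite cell factor, had 2, 0, 1 and 0 reads in uninjured, 11, 12, 10 and 10 in injured and 4, 3, 1 and 2 in antibody-treated libraries, Myod1 had 1 to 8 in any library and Myog 0 to 4, all under the filter. Myh3, the embryonic heavy chain, was at 5.09 ± 0.619, 5.44 ± 0.248 and 4.53 ± 0.742 CPM. Myh8, the perinatal heavy chain, had 20, 19, 15 and 18 reads in antibody-treated and 6 to 12 in other libraries. Of the 7 embryonic fibre genes, 4 tested, Tnnt2 rose with injury and Myh8, which passed the filter only through the antibody-treated libraries, was the one higher with antibody, and Myl4 was at 22.2 ± 4.15 CPM in uninjured and 19.5 ± 6.91 in antibody-treated mice. Of 8 genes of the neuromuscular junction, 5 tested, Dok7 rose with injury and none passed between antibody-treated and uninjured mice, with Dok7 at 14.2 ± 0.601 and 13.6 ± 1.73 CPM and Musk at 1.35 ± 0.145 and 0.888 ± 0.238 CPM. Heart markers were absent or scarce: the cardiac factors Tbx5 and Nkx2-5 had no read in any library, and the list of 9, led by Tnni3 and Mybpc3, summed to 1.09 to 2.55 CPM in antibody-treated and 1.21 to 2.35 CPM in uninjured libraries.

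Markers of tissues around the brain were read in the same way. Fabp4, Bglap, Ibsp, Tnmd and Prx passed the filter only with the antibody-treated libraries, so that the filter favoured a higher level there. Tnmd and Prx were still not called between antibody-treated and uninjured mice. Of 10 fat cell genes, 3 tested, Fabp4 and Plin4 were higher with antibody than in uninjured mice, the list summing to 7.66 to 9.46 CPM against 4.82 to 6.05 in uninjured and 4.98 to 6.43 in injured libraries, and Lep, the hormone of fat cells, had no read. The list was led by Plin4, at 3.52 ± 0.364 CPM in uninjured and 5.82 ± 1.16 in antibody-treated mice, and Adrb3, at 1.17 ± 0.322 and 1.0 ± 0.329 CPM. Of 7 bone genes, 5 tested, Bglap rose with injury, and Bglap and Ibsp were higher with antibody than in uninjured mice. Bglap, osteocalcin, was absent from all uninjured libraries and at 0, 0.361, 0.382 and 0.592 CPM in the injured and 0.998 to 2.92 CPM in the antibody-treated ones, and the bone list summed to 9.55 to 11.5, 8.90 to 11.1 and 11.4 to 14.7 CPM in the 3 groups, led by Dmp1 and Sp7. Of 7 genes of tendon and cartilage, 6 tested, Fmod, Comp and Thbs4 were higher than in uninjured mice both with injury alone and with antibody, and the list summed to 44.9 to 47.6, 58.8 to 61.7 and 57.1 to 65.7 CPM. Of 9 smooth muscle genes, 8 tested, Synpo2 rose with injury and Des and Synpo2 were higher with antibody. Des, desmin, which skeletal fibres share, went from 3.08 ± 0.928 and 3.96 ± 0.399 CPM to 9.59 ± 1.97 CPM, while Acta2 and Myh11 were at 29.7 ± 2.61 and 20.6 ± 1.77 CPM in uninjured and 33.7 ± 5.16 and 18.4 ± 2.31 CPM in antibody-treated mice. Of 8 genes of the epidermis, 4 tested, Lor rose with injury and none was higher with antibody, with Krt10 at 9.83 ± 2.15 and 8.80 ± 0.80 CPM and Sbsn at 6.4 ± 0.586 and 6.72 ± 1.51 CPM in uninjured and antibody-treated mice. Of 5 Schwann cell genes, led by Prx and Cldn19 at under 1 CPM in uninjured mice, 1 was tested, and it did not pass. Their part in the muscle gene levels was not tested.

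The tissue itself was brain in every library. Snap25 of neurons was at 3031 ± 45.6, 2363 ± 267 and 2854 ± 46.6 CPM in uninjured, injured and antibody-treated mice, and Slc1a2 of astrocytes at 2633 ± 330, 2172 ± 142 and 2162 ± 321. Of 11 brain cell markers, 1 rose and 6 fell with injury, beside 11.9% and 11.0% of all genes. In antibody-treated against uninjured mice 1 was higher and 2 were lower, beside 6.30% and 3.22%.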

How the data were processed

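Total RNA of brain tissue from 12 mice was sequenced, 1 library a mouse. Per the submitters' processing notes, the tools included CASAVA 1.8.2, FastQC 0.11.8 and Trimmomatic 0.39, with genome build GRCm38; aligner, counting program and any use of strand in counting (not given in the sources used here) remain unknown. Each deposited table holds, per the file headers, read counts per gene (exon, junction and intron reads, total and unique), which the authors did not normalise, and TPM and RPKM values, which the authors scaled by exon length and depth; the RPKM values were not used. The TPM column equals the expression value column in all 12 tables. All 34 genes match GENCODE release M21 by start and end.

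Total exon reads were tested with edgeR 4.0.16 in R 4.3.3: filterByExpr by group, TMM factors and a quasi-likelihood fit of group alone over all 12 libraries (9 residual degrees of freedom). P-values are two-sided and adjusted by Benjamini-Hochberg over 14771 genes, with a threshold of 0.05. The fit was tested on simulated data with known changes. Counting intervals are exact at 95% for reads summed over the mice of a group. Like bounds from 3 reads, they cover counting error only and leave out the spread between mice. Reads were also not marked by molecule.

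The 34 genes and the 14 further lists (153 genes) were chosen with earlier results of these data known. Values in every library are given for the 4 genes highest in antibody-treated mice, each gene expressed in brain, each gene called between injured and uninjured mice and the leading gene of each role; reads of other genes are added where few. Of each further list, the pair of genes with the highest mean CPM was named, with Myh7, Myh3, Myh8, Pax7, Myod1 and Myog; other names were chosen after their values were seen. Alternatives were DESeq2 1.42.0 size factors and Wald test, limma 3.58.1 voom, library size alone, other filters, only the compared groups, a replicate block, unique reads, each library left out and, added after seeing the data, removal of a GC and length trend with mgcv 1.9.3.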

Additional observations from a re-analysis of the deposited data

Results flagged for a closer look

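In 11 of the 105 sets of 4 libraries looked at, 1 library stood apart from the other 3, with a gap, as a share of the whole range in normalised CPM, above Dixon's 95% critical value for 4 samples; chance gives about 1 set in 20. Of these, 8 rest on at most 10 reads in the library that stood apart: Myh1 lowest in injured replicate 1 (gap 0.888 of the range, 7 reads), Myl1 highest in uninjured replicate 3 (0.874, 10 reads), Mybpc2 highest in uninjured replicate 4 (0.985, 6 reads), Trdn highest in injured replicate 3 (0.927, 2 reads), Casq1 lowest in injured replicate 4 (0.857, 6 reads), Sln lowest in uninjured replicate 4 (0.909, 2 reads), and single reads of Actc1 in uninjured replicate 2 and of Ckm in injured replicate 1, where the gap is the whole range (1.0).

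The other 3 have more reads. Tcap was highest in antibody-treated replicate 4, at 9.31 CPM against 5.48 to 6.12 in the others (gap 0.831 of the range). Ryr1 was highest in antibody-treated replicate 3, at 23.0 CPM against 18.2 to 18.6 (0.904). That library lay within the uninjured range (22.8 to 29.2 CPM), so that the lower level against uninjured mice rests on the other 3 mice. It was still below every injured library (23.3 to 29.4 CPM). Atp2a1 was highest in injured replicate 1, at 1.91 CPM against 1.51 to 1.56 (0.876), and its call between injured and uninjured mice held without that library.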

How the results depend on the processing

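Over 2159 alternatives to the 99 log2 fold changes, 2078 kept their direction and side of the threshold (50 of them with a change of sign that was called in neither), 56 lost a call, 24 gained one and 1 reversed. Tnnt1 and Atp2a1 kept their rise in injured mice under each alternative run. With the GC and length trend removed, 2 genes rather than 4 rose, Eno3 losing its call (adjusted p = 0.334) and Pygm reversing to a log2 fold change of -0.00044 (adjusted p = 0.996). Without filter Eno3 also lost it (adjusted p = 0.0540), and over single libraries left out the count ranged from 2 to 5: Eno3 was lost at adjusted p from 0.0518 to 0.121, and Pygm without uninjured replicate 1, injured replicate 2 or injured replicate 4 (adjusted p = 0.0592, 0.0543 and 0.0623). Tpm2 gained a call as higher with only the 2 compared groups (edgeR adjusted p = 0.0445) and without antibody-treated replicate 4 (0.0455). Actn3 gained one without uninjured replicate 3 (edgeR adjusted p = 0.0222). Genes lower in injured mice numbered 1 (Ldb3) with only the 2 compared groups, and 0 to 1 with single libraries left out.

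Ryr1, the 1 gene lower in antibody-treated than in uninjured mice, was not called by library size alone (0), with only the 2 compared groups (0) or with the replicate block (0). With the GC and length trend removed 2 were lower, Ryr1 and Tnnc1, and with single libraries left out 0 to 1. Against injured mice Ryr1 was not called with the GC and length trend removed (log2 fold change -0.10). The count of lower genes was 0 to 4 with single libraries left out. It was 0 without injured replicate 4 or antibody-treated replicate 2, and 4 without antibody-treated replicate 4. Without heavy chains and actins the summed TPM of muscle-restricted genes was 6.93 in injured and 132 in antibody-treated mice. Deviations of same-numbered replicates from their group means had correlations from -0.679 to 0.575, the highest between replicates 1 of injured and uninjured mice. These values cannot show whether the numbers pair the mice, and the labels state no pairing. The replicate block gave 4 genes higher in injured mice and 24 higher with antibody in either comparison. Library size alone moved the all-gene median between injured and uninjured mice to 0.11 on the log2 scale. The cause was not tested. Genes called over the whole table ranged widely, from 510 to 3157 higher and 580 to 2894 lower in injured against uninjured mice, from 640 to 2054 and 201 to 2813 with antibody against uninjured, and from 1053 to 1957 and 837 to 1816 against injured mice, around 1764, 1632, 931, 476, 1612 and 1581 as reported. Sln, with at most 6 reads a library, was not tested, and no change is claimed for it.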
